A study of Homo sapiens with 23 samples.

Results

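OCI-AML3 cells exposed to CIGB-300 during 30 min were compared with untreated OCI-AML3 cells of the same time. OCI-AML3 is an established human acute myeloid leukemia (AML) cell line that carries the cytoplasmic mutant form of nucleophosmin, and CIGB-300 is a synthetic peptide that binds substrates of protein kinase CK2 at their phosphorylation site and also the catalytic subunit of the enzyme. The 5 arrays of this comparison were chosen by cell line, time point and agent, and were 3 treated arrays (replicates 1, 2 and 3) and 2 untreated arrays (replicates 2 and 3) of the 23 Clariom S HT arrays of the study. The authors had removed the untreated array of replicate 1 after quality control, and it was not analysed here. Treated cells received 40 µM of the peptide, untreated cells received no agent, and all cells grew in RPMI medium with fetal bovine serum. The other 18 arrays were 6 OCI-AML3 arrays of 3 h and 12 arrays of HL-60, another AML line, each with 3 treated and 3 untreated arrays at each time. Untreated OCI-AML3 arrays of 3 h carry 30h in their titles and 3h in their time label, which was followed. A single cell line and a single dose limit the comparison, and the labels do not say whether replicates came from separate cultures, so that p-values measure only the spread between these arrays.

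CK2 is a constantly active serine/threonine kinase that phosphorylates many substrates in AML cells, nucleophosmin among them. Immediate early genes are switched on within minutes of a stimulus, without new protein synthesis, by transcription factors that are already present in the cell. Examples are the serum response factor at CArG boxes, CREB at cAMP response elements (CRE), and NF-kB. Many products of immediate early genes are transcription factors of the EGR, NR4A and AP-1 families. Others are secreted chemokines and cytokines, or proteins that shut the same signals off again. The mRNAs of immediate early genes are short-lived, so that their levels can move in both directions within a short time.

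Promoters of 3 of these transcription factor genes whose mRNA was higher in treated cells are shown. They were chosen because their short windows hold some of the binding motifs searched for here. Each sequence is the RefSeq window of GRCh38.p14 from 250 bases before to 50 bases after the transcription start site, written 5′ to 3′ on the strand of the gene, with the matches in capitals. The EGR1 window lies at chr5:138465229-138465528 on the plus strand, the JUN window at chr1:58783998-58784297 on the minus strand and the FOSB window at chr19:45467746-45468045 on the plus strand.
EGR1: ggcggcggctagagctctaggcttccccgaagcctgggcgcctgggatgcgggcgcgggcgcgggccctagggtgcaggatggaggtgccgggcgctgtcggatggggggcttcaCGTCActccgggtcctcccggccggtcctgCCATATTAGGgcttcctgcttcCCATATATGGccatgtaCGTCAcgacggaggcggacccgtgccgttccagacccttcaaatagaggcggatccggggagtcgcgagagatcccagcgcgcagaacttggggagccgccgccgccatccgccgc
JUN: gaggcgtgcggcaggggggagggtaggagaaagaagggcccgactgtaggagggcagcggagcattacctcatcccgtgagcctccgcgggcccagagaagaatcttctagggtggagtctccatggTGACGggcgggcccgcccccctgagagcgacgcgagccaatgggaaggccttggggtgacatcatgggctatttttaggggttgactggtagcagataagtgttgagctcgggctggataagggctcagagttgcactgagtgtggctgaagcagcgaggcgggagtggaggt
FOSB: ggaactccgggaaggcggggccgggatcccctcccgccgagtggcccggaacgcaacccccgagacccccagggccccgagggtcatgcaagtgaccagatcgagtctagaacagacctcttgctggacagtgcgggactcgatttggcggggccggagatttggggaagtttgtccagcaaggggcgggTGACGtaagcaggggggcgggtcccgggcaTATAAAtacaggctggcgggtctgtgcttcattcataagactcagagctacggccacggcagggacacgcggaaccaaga

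Positions are counted from the start site, with the base before it as -1. The EGR1 window held 2 CArG boxes, at -105 to -96 and at -83 to -74, and 2 copies of the CRE core TGACG on the opposite strand, at -135 to -131 and at -66 to -62. The JUN window held the CRE core at -123 to -119, and the FOSB window held it at -60 to -56 together with a TATA box (TATAAA) at -30 to -25. These matches describe letters in a window and were not shown to be bound by a factor. Of the 116 genes with a symbol that were higher by the thresholds given below, 92 had a promoter in the RefSeq table, with 121 start sites, as had 49 of the 79 lower genes, with 71 start sites. The CRE core, searched on both strands, was in 34.7% of the start sites of the higher genes, 21.1% of those of the lower genes, 27.9% of the 20090 start sites of all genes tested and 24.6% of all 35116 start sites in the table. The full CRE TGACGTCA, which contains the core, was in 1.65%, 5.63%, 2.27% and 1.85% of them, the AP-1 site TGANTCA in 4.96%, 5.63%, 6.23% and 7.71%, and the EGR site GCGTGGGCG in 1.65%, 0%, 1.08% and 0.795%. The CArG box was in 0.826%, 1.41%, 1.28% and 1.29%, the NF-kB site in 15.7%, 12.7%, 12.8% and 11.3%, and the TATA box in 13.2%, 7.04%, 9.3% and 11.5%, again for higher genes, lower genes, genes tested and all start sites. No test was run on these shares.

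Values are the deposited log2 signals after robust multi-array averaging (RMA), so that a difference of 1 is a fold change of 2, and signals of different probe sets cannot be set against each other. Of 21448 probe sets tested, 17709 had a gene symbol, and genes were counted as measured only by symbol, so that list members may sit among the 3739 probe sets without one. The medians of the 5 arrays lay between 5.52 and 5.55, no arrays had identical values, and arrays of 1 group correlated with r of 0.992 across probe sets, against 0.991 between treated and untreated arrays. A differentially expressed gene (DEG) changed by 1.5-fold or more with an unadjusted p under 0.01 in limma, and "rose" and "fell" are used only of DEGs; adjusted p-values are Benjamini-Hochberg values over all 21448 probe sets, and ± after a log2 fold change is its standard error. All 12 measured reference genes were below these thresholds (median log2 fold change -0.01, all between -0.13 and 0.13). Of 7 measured common myeloid markers, LYZ, PTPRC, SPI1, CD38, CEBPA and ANPEP read between 9.16 and 12.84 on the 5 arrays, and MPO, which is described further on, read 5.29 and 5.53 in untreated cells and rose. Of 14 T and NK cell, 10 erythroid and megakaryocyte and 12 stromal and epithelial marker genes, 0 were DEGs. As 1.07% of all probe sets were DEGs, 0 in lists of this size is near that share.

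In OCI-AML3 cells treated for 30 min, 131 probe sets rose (0.611% of those tested, 116 with a symbol) and 99 fell (0.462%, 79 with a symbol), while 36 of the rises and 3 of the falls had an adjusted p under 0.05 (together 0.182%). Counts of list members given below stand beside the shares of 0.611% and 0.462%. Among the rises with an adjusted p under 0.05, the named genes EGR3, CCL3, CCL3L3, NR4A1, ADAMTS1, OSM, JUN, DEFA4 and C3AR1 were over 3-fold higher in treated cells. The largest rise of all belonged to a probe set with no gene symbol, which went from a mean of 5.28 to 9.21 (fold change 15.3). All 3 treated arrays lay above both untreated ones in 129 of the 131 rises (11.5% of all probe sets) and below both in 98 of the 99 falls (12.6%), which the choice of DEGs largely fixes. With 3 arrays against 2, an exact permutation test of a single gene cannot go below a two-sided p of 0.1, and the limma p-values rest on the spread shared by all 23 arrays. With the fold limit set to 2, 38 probe sets rose and 7 fell.

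**Figure D1:**
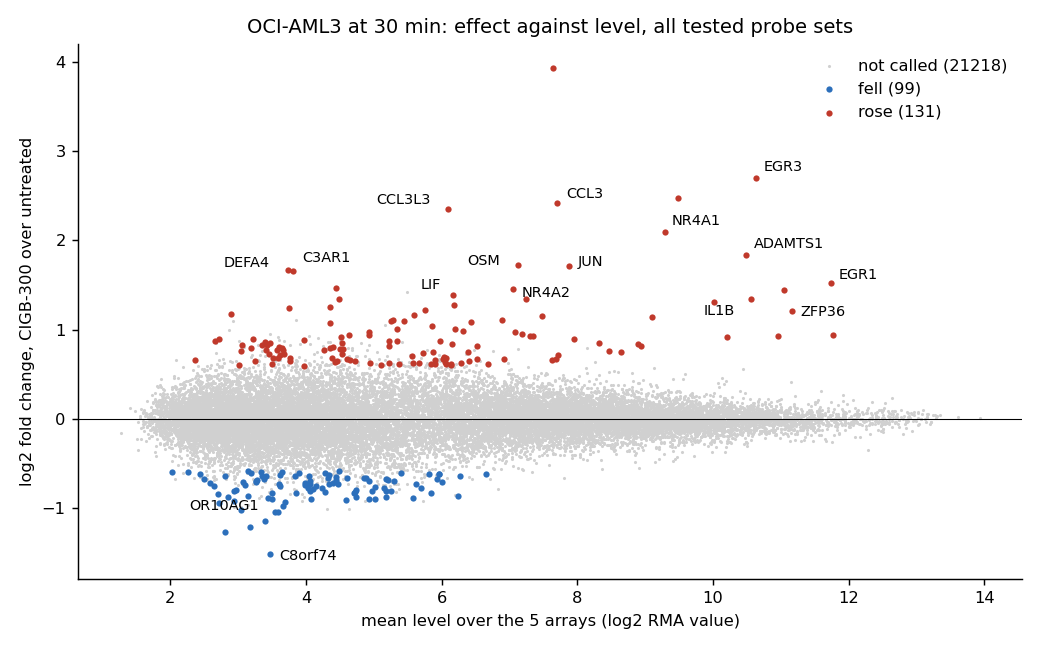
Log2 fold change of CIGB-300 over untreated OCI-AML3 cells at 30 min (vertical axis) against the mean log2 RMA signal of the 5 arrays (horizontal axis) for all 21448 probe sets. Coloured points are the 131 probe sets that rose and the 99 that fell, and the highest rises lie far above the falls, whose points are mostly at low signal.

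The rises and the falls differed in how brightly their probe sets were read. The brighter group's mean was under the median of all probe sets (5.52) in 78 of the 99 falls (78.8%), in 56 of the 131 rises (42.7%) and in 48.7% of the probe sets that were not DEGs. Among 5364 probe sets with a mean signal of 8 and over, 18 rose and 0 fell, and 14 of these rises had an adjusted p under 0.05. Between 6 and 8, 37 rose and 4 fell, between 4 and 6, 44 rose and 49 fell, and under 4, 32 rose and 46 fell. In the plot of fold change against signal this is seen as an empty lower right corner. Of 349 olfactory receptor genes, which encode odour receptors of the nose and had a median signal of 2.66, 0 rose and 6 fell (1.72%). Of all probe sets 0.611% rose and 0.462% fell, and of those with a mean signal under 4, 0.469% rose and 0.67% fell. The part of low signal in the 6 falls was not tested.

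The EGR family are zinc-finger transcription factors of the immediate early response, and the NAB proteins bind them and curb their activity. All 3 EGR genes measured by symbol rose and neither of the 2 NAB genes was a DEG, with 1 of the 6 listed genes not analysed here (median log2 fold change 0.65 over the 5 genes, against -0.004 over all probe sets). EGR3 read 8.998 and 9.03 in the untreated arrays and 11.77, 11.68 and 11.70 in the treated arrays, a log2 fold change of 2.70 ± 0.26 (6.52-fold, adjusted p = 1.15e-05, limma). EGR1, the best known member, read 10.76 and 10.88 untreated and 12.40, 12.36 and 12.29 treated (1.53 ± 0.25, 2.88-fold, adjusted p = 0.00772). In both genes the treated arrays lay close together and far above the untreated ones. EGR4 read 6.17 and 5.88 untreated and 6.70, 6.67 and 6.63 treated, and its rise of 0.65 ± 0.20 had an adjusted p of 0.44. This call was lost when any 1 of the 3 treated arrays was left out, where the log2 fold change was 0.63, 0.65 or 0.67, and without untreated replicate 3, where it was 0.50. The corepressors NAB1 and NAB2 had log2 fold changes of 0.36 ± 0.14 and 0.20 ± 0.34.

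The NR4A genes encode orphan nuclear receptors that are switched on early and act without a known hormone, and all 3 rose (median log2 fold change 1.45). NR4A1 read 7.95 and 8.12 in untreated cells and 10.11, 10.17 and 10.11 in treated cells (2.09 ± 0.19, 4.27-fold, adjusted p = 6.83e-06, limma). NR4A2 read 6.01 and 6.35 untreated and 7.74, 7.77 and 7.38 treated (1.45 ± 0.28, 2.73-fold, adjusted p = 0.0323). The treated and untreated arrays did not overlap in either gene. NR4A3, with a low signal of 3.82 and 3.38 untreated and 5.38, 4.87 and 4.30 treated, had the least even treated arrays of the family (1.25 ± 0.36, adjusted p = 0.34). It was no longer a DEG without treated replicate 1 (0.98) or without untreated replicate 3 (1.03).

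AP-1 is a dimer of proteins of the JUN, FOS, ATF and BATF families, and the small MAF proteins pair with related factors. Of 14 measured genes of this group, 4 rose, 0 fell and 10 were not DEGs (median log2 fold change 0.21). JUN read 6.68 and 7.01 in the untreated arrays and 8.57, 8.65 and 8.47 in the treated ones (1.72 ± 0.16, 3.29-fold, adjusted p = 9.82e-06, limma). FOSB read 6.58 and 7.01 untreated and 7.97, 7.97 and 7.90 treated (1.15 ± 0.23, adjusted p = 0.0446), and JUNB read 9.61 and 9.71 untreated and 10.59, 10.62 and 10.53 treated (0.92 ± 0.17, adjusted p = 0.0201). FOS read 8.03 and 8.37 untreated and 8.92, 8.95 and 8.98 treated (0.75 ± 0.22, adjusted p = 0.371), and was not a DEG without untreated replicate 2 (0.58). In these 4 genes each treated array lay above both untreated arrays. ATF3, a stress-induced member, read 5.40 and 5.23 untreated and 5.81, 5.88 and 6.56 treated, which was not a DEG (0.77 ± 0.41, adjusted p = 0.812). The other 9 members were not DEGs, with log2 fold changes of 0.29 for FOSL1, 0.23 for JUND, 0.19 for FOSL2, 0.07 for MAFF, -0.12 for BATF3, -0.16 for MAFG, -0.23 for BATF, -0.26 for JDP2 and -0.33 for BATF2.

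Of 32 further regulators of the early response, 7 rose and 0 fell (median log2 fold change 0.20). IER2 and IER3, which encode small proteins of this response, rose to 1.9-fold and 2.2-fold. IER2 read 10.36 and 10.46 untreated and 11.37, 11.32 and 11.32 treated (0.93 ± 0.11, adjusted p = 0.000133, limma), and IER3, which limits cell death, read 8.39 and 8.44 untreated and 9.45, 9.72 and 9.48 treated (1.14 ± 0.21, adjusted p = 0.0207). TRIB1, a pseudokinase that steers the degradation of C/EBP alpha, read 8.44 and 8.34 untreated and 9.10, 9.32 and 9.27 treated (0.84 ± 0.10, adjusted p = 0.000269). CSRNP1, a nuclear protein, rose by 0.75 ± 0.14 (adjusted p = 0.0314), and PLK2, a kinase of the polo family, rose by 1.10 ± 0.34 (adjusted p = 0.428). PLK2 was not a DEG without treated replicate 1 (0.96) or untreated replicate 3 (0.63). The remaining 2 were RHOB, a small GTPase (0.98 ± 0.19, adjusted p = 0.0314), and SNAI1, a repressor of E-cadherin (1.31 ± 0.42, adjusted p = 0.458), both named after their values were seen. SNAI1 read 9.22 and 9.21 untreated and 10.61, 10.51 and 10.47 treated, so that its treated arrays lay within a narrow band above the untreated ones. Of 14 Kruppel-like factors, 0 were DEGs (median 0.003), where 1.07% of all probe sets were DEGs.

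**Figure D2:**
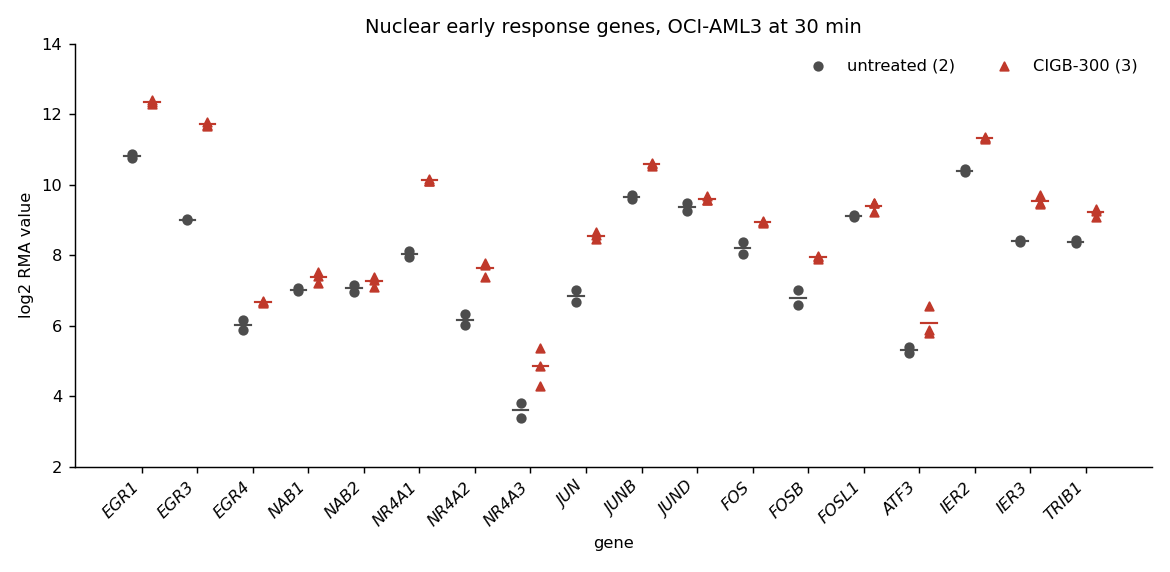
Log2 RMA signal on each of the 5 arrays (vertical axis) of 18 regulator genes (horizontal axis) in OCI-AML3 cells at 30 min, with circles for untreated arrays, triangles for CIGB-300 arrays and a line at each group mean. EGR3 shows the widest gap, from 8.998 and 9.03 to between 11.68 and 11.77, whereas NAB1, NAB2, JUND and FOSL1 show the narrowest.

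Some genes whose products damp signals rose in each of the lists below, and of all probe sets 0.611% rose. Of 17 genes for feedback inhibitors of MAP kinases, 3 rose and 0 fell (median log2 fold change 0.04). DUSP1, a phosphatase of JNK and p38, read 4.62 and 4.61 untreated and 5.83, 5.60 and 5.73 treated (1.10 ± 0.23, adjusted p = 0.0611, limma), and DUSP2, a nuclear phosphatase of ERK, read 6.56 and 6.67 untreated and 7.44, 7.69 and 7.56 treated (0.95 ± 0.16, adjusted p = 0.00873). SPRY2, an inhibitor of receptor tyrosine kinase signalling, read 7.29 and 7.26 untreated and 7.98, 7.98 and 7.88 treated (0.67 ± 0.11, adjusted p = 0.00871). The treated arrays of these 3 genes lay above both untreated arrays, by less than the gap seen in EGR3. ZFP36, which encodes tristetraprolin and marks AU-rich mRNAs for decay, read 10.40 and 10.47 untreated and 11.70, 11.62 and 11.61 treated (1.21 ± 0.11, 2.31-fold, adjusted p = 6.83e-06). It was 1 of 2 rises among 10 mRNA decay and antiproliferative genes (median 0.28), the other being its relative ZFP36L1 (0.66 ± 0.19, adjusted p = 0.34), which was not a DEG without treated replicate 3 (0.58) or untreated replicate 2 (0.33).

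Among 21 genes of the NF-kB system, the nuclear IkB proteins NFKBID and NFKBIZ rose and 19 were not DEGs (median log2 fold change 0.04). Of all probe sets 0.611% rose. NFKBID read 6.76 and 6.72 untreated and 7.77, 7.54 and 7.71 treated (0.93 ± 0.12, adjusted p = 0.000656, limma), and NFKBIZ read 8.44 and 8.46 untreated and 9.14, 9.31 and 9.34 treated (0.82 ± 0.13, adjusted p = 0.00749). Both untreated arrays of NFKBID at 30 min lay below all 9 other OCI-AML3 arrays, untreated cells at 3 h had a mean of 7.61, and against the untreated arrays of both times it was not a DEG (0.50). The classical feedback genes of this pathway did not pass, with NFKBIA, the cytoplasmic inhibitor chosen after its values were seen, at 0.04 ± 0.14 and TNFAIP3, the ubiquitin-editing enzyme A20, at -0.35 ± 0.14. TNFAIP3 read 9.02 and 8.93 untreated and 8.62, 8.64 and 8.62 treated. RGS2, a regulator of G protein signalling, was the single rise among 18 cAMP, calcium and RGS genes, with 5.57 and 6.01 untreated and 6.94, 6.97 and 6.71 treated (1.08 ± 0.19, adjusted p = 0.0176). PIM3, a serine/threonine kinase, was the single rise among 12 STAT feedback genes (0.71 ± 0.16, adjusted p = 0.109), and was not a DEG without untreated replicate 3 (0.48).

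Chemokines of the CC type attract monocytes and lymphocytes, and 3 of 21 measured genes rose while 0 fell (median log2 fold change 0.04). CCL3 read 6.22 and 6.29 in untreated cells and 8.70, 8.65 and 8.68 in treated cells (2.42 ± 0.32, 5.35-fold, adjusted p = 0.000851, limma). CCL3L3, a near-identical copy of CCL3 whose signal may share its transcripts, read 4.73 and 4.64 untreated and 6.92, 7.15 and 7.04 treated (2.35 ± 0.25, adjusted p = 4.5e-05), and how far the 2 rises are independent is uncertain. CCL2, a chemokine for monocytes, read 7.73 and 7.90 untreated and 8.81, 8.75 and 8.44 treated (0.85 ± 0.16, adjusted p = 0.0314). Of 20 CXC and other chemokines only CXCL8, the neutrophil chemokine interleukin-8, rose, from 11.15 and 11.27 to 12.13, 12.15 and 12.17 (0.94 ± 0.21, adjusted p = 0.115). Its 3 treated arrays differed from each other by less than from either untreated array. Of 18 chemokine receptors, ACKR3 fell (-0.68 ± 0.21, adjusted p = 0.437), a call lost without treated replicate 3 (-0.48) or untreated replicate 2 (-0.44).

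Of 35 interleukin, interferon and colony-stimulating factor genes, 4 rose and 1 fell (median log2 fold change 0.002). OSM and LIF, cytokines of the interleukin-6 family that signal through gp130, both rose. OSM read 5.73 and 6.45 untreated and 7.87, 7.80 and 7.77 treated (1.72 ± 0.26, 3.29-fold, adjusted p = 0.00384, limma), and LIF read 5.52 and 5.14 untreated and 6.70, 6.98 and 6.49 treated (1.39 ± 0.20, 2.63-fold, adjusted p = 0.00197). The untreated arrays of OSM lay far apart, and both were still below the treated ones. IL1B, a pro-inflammatory cytokine, read 9.71 and 9.79 untreated and 10.98, 11.14 and 11.17 treated (1.35 ± 0.13, 2.54-fold, adjusted p = 1.63e-05). IL10, an anti-inflammatory cytokine, rose at a signal near the bottom of the scale, from 2.76 and 3.01 to 3.64, 4.12 and 3.46 (0.86 ± 0.17, adjusted p = 0.0496). IL32, a pro-inflammatory cytokine, read 5.66 on both untreated arrays and 5.01, 4.71 and 4.84 on the treated ones (-0.81 ± 0.28, adjusted p = 0.536), and lost its call when any of the 5 arrays was left out. Of 17 listed ligands of the TNF family, 15 were measured by symbol and 0 of these were DEGs (1.07% of all probe sets), while the other 2 were not analysed here.

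HBEGF, a growth factor that binds the EGF receptor, was the single rise among 24 growth and vascular factors, with 6.22 and 6.64 untreated and 7.83, 7.59 and 7.91 treated (1.34 ± 0.23, 2.54-fold, adjusted p = 0.0112, limma). BDNF, the brain-derived neurotrophic factor, was chosen after its values were seen and read 4.97 and 5.09 untreated and 6.35, 6.19 and 6.20 treated (1.22 ± 0.18, adjusted p = 0.00384). ADAMTS1, a secreted metalloprotease of the extracellular matrix, was the single rise among 27 matrix, protease and cytoskeletal genes that serum response factor regulates in other cells. It read 9.26 and 9.52 untreated and 11.24, 11.23 and 11.22 treated (1.84 ± 0.13, 3.58-fold, adjusted p = 3.59e-07). Of 27 leukocyte receptors for lipids, complement and peptides, only C3AR1, the receptor of complement C3a, rose. C3AR1 read 2.56 and 3.06 untreated and 4.89, 4.43 and 4.10 treated (1.66 ± 0.27, 3.16-fold, adjusted p = 0.00749), with the treated arrays spread more widely than those of ADAMTS1. KCNJ2, an inward rectifier potassium channel, and ALKAL1, a ligand of the receptor ALK, completed the 15 largest named rises, at 1.47 ± 0.36 (adjusted p = 0.191) and 1.35 ± 0.33 (adjusted p = 0.19). KCNJ2 was not a DEG without untreated replicate 2 (1.11), nor ALKAL1 without untreated replicate 3 (1.05).

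**Figure D3:**
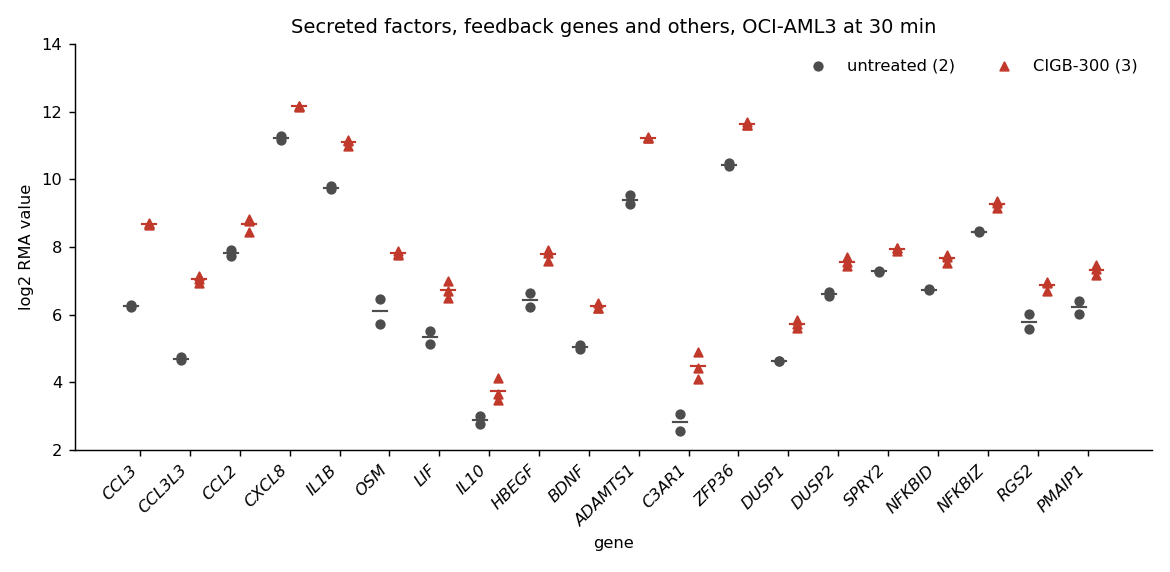
Log2 RMA signal on each of the 5 arrays (vertical axis) of 20 genes for secreted factors, receptors and feedback proteins (horizontal axis) in OCI-AML3 cells at 30 min, with circles for untreated arrays, triangles for CIGB-300 arrays and a line at each group mean. The 3 treated arrays lie above both untreated arrays in each gene, most widely in CCL3 and CCL3L3.

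Among the lists of cell death and growth genes described here, only the BCL2 family held DEGs. Of 18 genes of the BCL2 family, PMAIP1 and HRK, which encode the BH3-only proteins NOXA and Harakiri, rose. PMAIP1 read 6.03 and 6.41 untreated and 7.17, 7.36 and 7.46 treated (1.11 ± 0.21, 2.16-fold, adjusted p = 0.0277, limma). HRK rose by 0.61 ± 0.16 at a signal of 3.29 and 2.96 untreated (adjusted p = 0.247), and was not a DEG without treated replicate 2 (0.46) or untreated replicate 3 (0.45). Against the untreated arrays of both times HRK was not a DEG (0.29). Its untreated mean at 3 h was 3.77, above its treated mean of 3.74 at 30 min. The anti-apoptotic MCL1 and BCL2A1 were chosen after their values were seen: MCL1 read 10.81 and 10.99 untreated and 11.36, 11.27 and 11.30 treated, and BCL2A1 read 7.64 and 7.55 untreated and 8.01, 8.14 and 7.94 treated; both lay under the fold limit, at 0.41 and 0.44. Of 18 death receptor genes, 10 genes of cyclin-dependent kinase inhibitors and GADD45 proteins, 29 replication and mitosis genes, 19 nucleolar ribosome biogenesis genes and 44 replication-dependent histone genes, 0 were DEGs. The median log2 fold change of these lists was -0.04, -0.08, -0.01, -0.06 and -0.09. Of all probe sets 1.07% were DEGs, and 0 in lists of this size is near that share.

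Measured genes of the target of the peptide and of its best studied substrates did not move beyond the thresholds, which only 1.07% of all probe sets passed. Of 7 measured genes for CK2 subunits, nucleolin and the nucleophosmin family, 0 were DEGs (median log2 fold change 0.06). The list held 8 genes, and 1 was not measured by symbol. No gene of the CK2 beta subunit was among the 7. CSNK2A1, the CK2 alpha subunit, read 10.89 and 10.99 untreated and 11.01, 11.05 and 11.07 treated (0.10 ± 0.09, adjusted p = 0.932, limma), and CSNK2A2, the alpha prime subunit, had 0.01 ± 0.09. CSNK2A3, an intronless copy whose signal may share CSNK2A1 transcripts, had 0.29 ± 0.11. Nucleophosmin, NPM1, read 10.84 and 10.70 untreated and 10.98, 10.86 and 10.88 treated (0.14 ± 0.10), and its relatives NPM2 and NPM3 had 0.06 ± 0.25 and -0.21 ± 0.13. Nucleolin, NCL, had -0.07 ± 0.09. Protein and phosphorylation were not measured by these arrays.

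Stress programmes known to respond to injured proteins or oxidants had 0 DEGs, which in lists of this size is near the share over all probe sets (1.07%). These were 28 ATF4 and unfolded protein response genes (median log2 fold change 0.09), 20 heat shock genes (0.03) and 21 NRF2 target and metallothionein genes (-0.02). DDIT3 and CHAC1 were chosen after their values were seen. DDIT3, the factor CHOP of the unfolded protein response, read 6.03 and 5.15 untreated and 5.82, 6.19 and 6.29 treated, so that the groups overlapped, and CHAC1, a target of ATF4, had 0.40 at 7.23 and 7.45 untreated. Of 30 interferon-stimulated genes, IFIH1, the RNA sensor MDA5, and OAS3, an oligoadenylate synthetase, rose by 0.62 ± 0.15 and 0.61 ± 0.16 (adjusted p = 0.196 and 0.27, limma). IFIH1 was not a DEG without untreated replicate 2 (0.45), and OAS3 was not without treated replicate 1 (0.55) or untreated replicate 3 (0.56). Against the untreated arrays of both times IFIH1 was not a DEG either (0.41). The 21 glycolysis and hypoxia genes, the 18 cholesterol and fatty acid synthesis genes, the 26 myeloid and progenitor transcription factors and the 9 measured HOX, MEIS1 and PBX3 genes held 0 DEGs, with medians between -0.14 and 0.05. For these lists too, 0 is near the share over all probe sets. Of 26 monocyte and macrophage genes only CD80, a costimulatory ligand, rose, at the fold limit (0.59 ± 0.20, adjusted p = 0.511), and it was not a DEG without treated replicate 1 (0.60) or 2 (0.46) or untreated replicate 3 (0.39).

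Some rises belonged to genes of other lineages or of neutrophil granules. DEFA4, a defensin of neutrophil granules, read 2.96 and 2.53 untreated and 4.15, 4.82 and 4.25 treated (1.66 ± 0.30, 3.17-fold, adjusted p = 0.0227, limma), and MPO, the granule peroxidase, read 5.29 and 5.53 untreated and 5.75, 7.53 and 6.78 treated (1.28 ± 0.39, adjusted p = 0.414). MPO was highest in treated replicate 2 and close to untreated cells in treated replicate 1, and its call was lost without treated replicate 2 (0.86), treated replicate 3 (1.23) or either untreated array (1.16 and 1.40). The other 9 measured granule genes were not DEGs, and of these PRTN3, CTSG and AZU1 were chosen after their values were seen: PRTN3 read 11.60 and 11.70 untreated and 11.74, 11.66 and 11.79 treated, and CTSG and AZU1 had -0.04 and -0.05. The log2 values of the 11 granule genes, DEFA4 and MPO included, added up to 64.9 and 66.1 on the untreated arrays. On the treated arrays they added up to 65.6, 71.4 and 68.6. CD79A, a subunit of the B cell receptor, rose by 0.74 ± 0.19 (adjusted p = 0.219) and was not a DEG without untreated replicate 2 (0.51), while MS4A1, PAX5, EBF1, CD79B and BLK were not DEGs. The log2 values of the 6 B cell markers added up to 28.4 and 29.98 untreated and 29.7, 29.0 and 29.0 treated.

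DEFA4, MPO and CD79A are highly expressed in HL-60, the other line of the study, where untreated cells at 30 min had means of 9.36 for DEFA4 and 13.09 for MPO. Therefore 40 probe sets were taken, after values had been seen, that were at least 5 log2 units higher in untreated HL-60 cells than in untreated OCI-AML3 cells at 3 h and under 6 in the latter. Of these, 6 rose in treated OCI-AML3 cells at 30 min (0.611% of all probe sets rose) and 0 fell (0.462%). A log2 fold change above 0 was seen in 29, and the median was 0.23, against -0.004 over all probe sets. DEFA1 and DEFA1B, both in the set, had the same values on each array, so that the 40 are not all separate signals. The 6 were DEFA4 and CD79A, which had prompted the choice, and, outside the rule for named genes, GALNT3, ATP6V1C2, SUCNR1 and GRAMD1B. Their 40 signals had a mean of 3.69 and 3.67 on the untreated arrays of 30 min and of 3.64, 4.15 and 4.02 on treated replicates 1, 2 and 3, and lay between 3.62 and 3.94 on the 6 OCI-AML3 arrays of 3 h. Treated replicates 2 and 3 were thus the highest of the 11 OCI-AML3 arrays, and the part of this signal in the rises was not tested. Among the 36 rises with an adjusted p under 0.05, 21 had a higher mean in treated OCI-AML3 cells than in either group of HL-60 cells at 30 min. EGR3, NR4A1 and ADAMTS1 were among them, and JUN, CCL3 and C3AR1 were not. What these levels mean for the source of the rises was not tested. Of the rises named by the rule, 31 of 45 named rises kept their call when each of the 5 arrays was left out in turn.

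The falls were smaller and less even than the rises. C8orf74, an open reading frame of chromosome 8, had the largest fall, from 4.39 and 4.38 untreated to 3.42, 2.63 and 2.51 treated (-1.53 ± 0.24, 2.88-fold lower, adjusted p = 0.00713, limma). OR10AG1, an olfactory receptor gene, fell from 4.07 and 4.02 to 2.88, 3.31 and 3.23 (-0.91 ± 0.15, adjusted p = 0.00855), but was not a DEG against the untreated arrays of both times (-0.39). CLDN6, a claudin of tight junctions chosen after its values were seen, was the other fall with an adjusted p under 0.05 (-0.71 ± 0.14, adjusted p = 0.0323). All 3 genes had untreated signals under the median of all probe sets. Among the 15 largest falls by the rule were further SPARC, a matrix protein (4.12 and 4.37 untreated, 3.33, 3.74 and 2.71 treated), and IKZF2, the lymphoid factor Helios (3.59 and 3.41 untreated, 2.55, 2.98 and 2.19 treated). TBXA2R, the thromboxane receptor, read 5.67 and 5.28 untreated and 4.34, 4.19 and 5.18 treated, and PRMT8, a methyltransferase of neurons, read 2.96 and 3.63 untreated and 2.38, 2.23 and 2.42 treated. SBSPON and LCN15 had the widest untreated arrays, with 4.33 and 2.98 for SBSPON and 3.70 and 4.72 for LCN15. The remaining members, FAM167A, RNF175, PRRT1, SMIM14, SPACDR, DENND2B and RNF32, had log2 fold changes between -1.05 and -0.87 and adjusted p-values between 0.27 and 0.503. Of the 17 named falls, 15 lost their call when at least 1 of the 5 arrays was left out, C8orf74 and OR10AG1 being the exceptions. Like OR10AG1, the named falls ACKR3, RNF32, DENND2B, SPACDR, SMIM14, PRRT1 and RNF175 were not DEGs against the untreated arrays of both times. Their log2 fold changes then lay between -0.59 and -0.39.

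The untreated arrays of 3 h, which share no array with this comparison, gave a further look at its control level. Both untreated arrays of 30 min lay above all 9 other OCI-AML3 arrays in 47 of the 99 falls (2.92% of all probe sets), and below all 9 in 39 of the 131 rises (2.7%). The 9 include the 3 treated arrays that define the falls and rises, so that these counts are a description and are not read against the shares of all probe sets. The untreated mean of 30 min was above the untreated mean of 3 h in 94 of the 99 falls, in 40 of the 131 rises and in 11042 of all 21448 probe sets. The untreated arrays of 30 min also help to choose the falls and rises, so that these counts too are only a description. They are not read against the count of all probe sets. For the 36 rises with an adjusted p under 0.05, the untreated mean of 30 min was above that of 3 h in 28. Most of these genes were thus lower in untreated cells at 3 h than at 30 min. The 3 treated arrays lay above all 5 untreated OCI-AML3 arrays in 35 of the 36 and in 65 of the 131 rises (2.6% of all probe sets), and below all 5 in 23 of the 99 falls (2.23%), where the 5 likewise include both arrays of the comparison. In untreated cells, 55 probe sets (0.256%) were lower and 112 higher at 3 h than at 30 min at an adjusted p under 0.05, and 7 and 8 of the 131 rises were among them. EGR3 had means of 9.01 untreated and 11.72 treated at 30 min, and of 6.13 and 9.61 at 3 h, and NR4A1 had 8.03, 10.13, 6.63 and 9.24 in the same order. For EGR1 these means were 10.82, 12.35, 9.75 and 11.20, and for CCL3 they were 6.25, 8.67, 5.21 and 7.79. In these 4 genes the untreated cells of 30 min thus lay between the untreated cells of 3 h and the treated cells of 30 min. The part of this untreated time difference in the rises and falls was not tested.

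**Figure D4:**
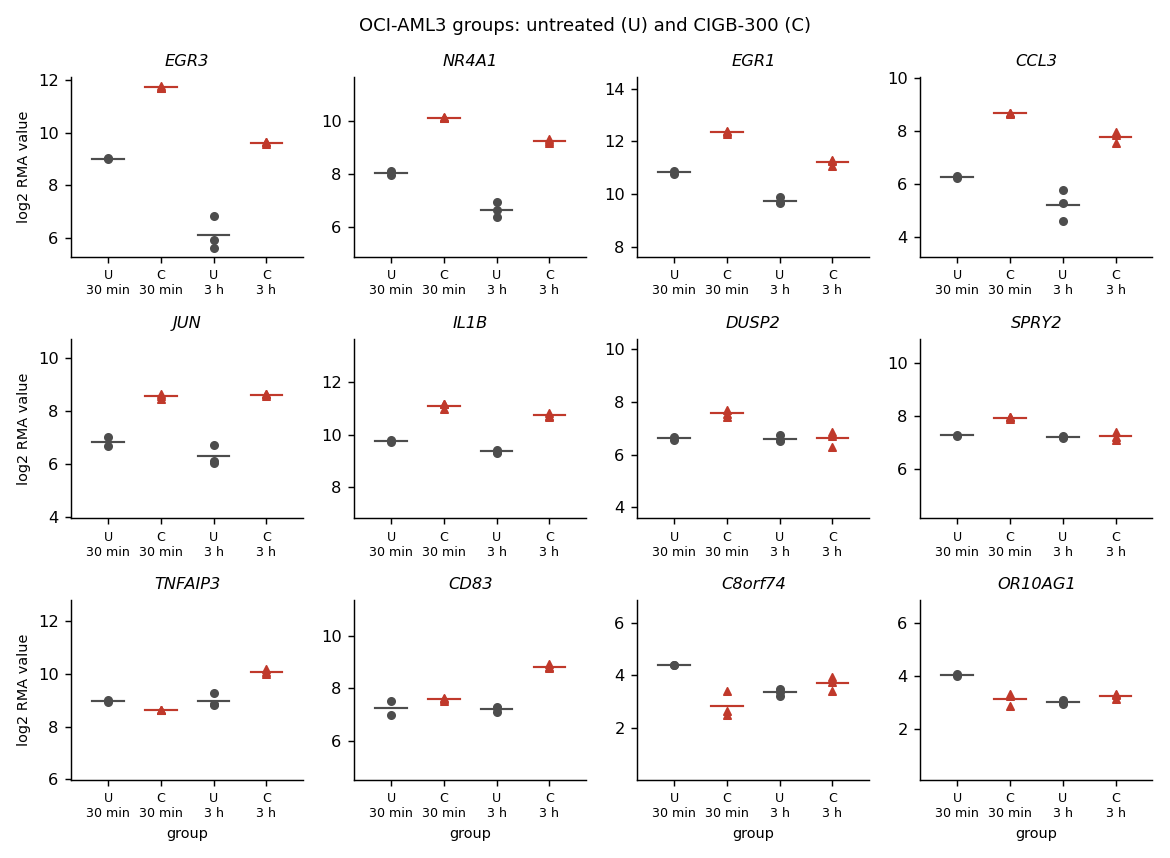
Log2 RMA signal of each array (vertical axis, of equal span in all panels) for 12 genes in the 4 OCI-AML3 groups, untreated (U) and CIGB-300 (C) at 30 min and 3 h, with a line at each group mean. EGR3, NR4A1, EGR1 and CCL3 are lower in untreated cells at 3 h than at 30 min, DUSP2 and SPRY2 have means of 7.56 and 7.95 in treated cells at 30 min and of 6.62 and 7.24 at 3 h, while TNFAIP3 and CD83 are highest in treated cells at 3 h.

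At 3 h in the same cells, 231 probe sets rose (1.08%) and 112 fell (0.522%). Of the 131 rises at 30 min, 35 (26.7%) rose at 3 h, which were 15.2% of the rises there, and 3 fell; of the 36 with an adjusted p under 0.05, 26 (72.2%) rose at 3 h. Of the 99 falls at 30 min 0 fell at 3 h, and 4 without a symbol rose there. The median log2 fold change at 3 h was 0.15 for the rises of 30 min and 0.08 for the falls, against 0.001 over all probe sets. DUSP2 and SPRY2 had log2 fold changes of 0.01 ± 0.14 and 0.04 ± 0.10 at 3 h, against 0.95 and 0.67 at 30 min, but for neither did the difference pass an adjusted p of 0.05. The difference between the effects at 30 min and 3 h, tested in limma over all probe sets, passed an adjusted p of 0.05 for 15 probe sets (0.0699%), 9 of them with a symbol. Higher at 30 min was the effect of PWWP3A, a PWWP domain protein, with 0.49 ± 0.14 against -0.59 ± 0.12 (difference 1.08, adjusted p = 0.0294). Its treated means were close, at 6.41 at 30 min and 6.24 at 3 h, while its untreated means were 5.93 and 6.83. Both untreated arrays of PWWP3A at 30 min lay below all 9 other OCI-AML3 arrays. The part of the untreated arrays in this difference was not tested. Lower at 30 min were the effects of TNFAIP3, with -0.35 against 1.10 (difference -1.45, adjusted p = 0.00242), of CD83, a maturation marker of dendritic cells, with 0.34 against 1.61 (-1.27, adjusted p = 0.00471), and of INSIG1, a brake on cholesterol synthesis, with 0.19 against 1.41 (-1.23, adjusted p = 0.00242). C8orf74, OR10AG1 and OR6T1 had effects below 0 at 30 min and above 0 at 3 h, with differences of -1.85, -1.12 and -1.14 (adjusted p = 0.0398, 0.0436 and 0.0487). OR10AG1 had treated means of 3.14 at 30 min and 3.23 at 3 h, and untreated means of 4.05 and 3.02. PWWP3A and the genes after it are those the rule on differences names, and CDKL2 and IL2RG, the others with a symbol, were outside it.

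In HL-60 cells at 30 min, which share no array with this comparison either, 121 probe sets rose (0.564%) and 67 fell (0.312%). Of the 131 rises in OCI-AML3 cells 28 (21.4%) rose in HL-60, which were 23.1% of the rises there, and 1, C5orf34, chosen after its values were seen, fell; of the 36 with an adjusted p under 0.05, 24 (66.7%) rose. Of the 99 falls 0 fell in HL-60, where 46 had the same sign, and the median there was 0.05 for these falls. Of the 131 rises, 22 rose also in OCI-AML3 at 3 h and in HL-60 at 30 min, 6 only in HL-60, 13 only at 3 h and 90 in neither. The 6 were EGR4, DUSP2, CSRNP1, CCL3L3, IER2 and NFKBID, and the 13 included ADAMTS1, OSM, LIF, IL1B, NFKBIZ, DUSP1 and ZFP36L1. Of the 90, 5 had an adjusted p under 0.05, namely IL10, BDNF, SPRY2, DEFA4 and ATP6V1C2. A call in 1 comparison and not in another does not show that the effects differ, and that difference was tested as follows.

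The effect differed between the lines at an adjusted p under 0.05 for 16 probe sets (0.0746%), 13 with a symbol, in limma. OSM, ADAMTS1 and IL1B responded more in OCI-AML3 cells. OSM had 1.72 ± 0.26 in OCI-AML3 against -0.36 ± 0.23 in HL-60 (difference 2.08 ± 0.35, adjusted p = 0.0155), ADAMTS1 had 1.84 ± 0.13 against 0.31 ± 0.12 (1.53 ± 0.18, adjusted p = 0.000426) and IL1B had 1.35 ± 0.13 against 0.38 ± 0.12 (0.97 ± 0.18, adjusted p = 0.0444). Their untreated signals at 30 min were 6.09 in OCI-AML3 and 6.08 in HL-60 for OSM, 9.39 and 6.77 for ADAMTS1, and 9.75 and 7.53 for IL1B. The other 10 responded less in OCI-AML3 cells or in the opposite direction. NR4A3 had 1.25 ± 0.36 against 5.20 ± 0.32 (-3.95 ± 0.48, adjusted p = 0.000498), from similar untreated signals of 3.60 and 3.12. GPR18, a receptor of lymphoid and myeloid cells, had -0.13 ± 0.13 against 2.74 ± 0.11 (-2.88 ± 0.17, adjusted p = 1.57e-08), but its untreated signal was already 10.04 in OCI-AML3 against 6.59 in HL-60. CD69, an early activation antigen of leukocytes, had 0.05 ± 0.31 against 2.76 ± 0.28 (-2.71 ± 0.41, adjusted p = 0.00777), and read 3.53 and 3.58 in untreated and treated OCI-AML3 cells. CCL3L3 had 2.35 against 4.48 (-2.13 ± 0.33, adjusted p = 0.00956) and CCL2 had 0.85 against 2.93 (-2.08 ± 0.22, adjusted p = 8.14e-05), so that both chemokines rose in both lines. The difference of CCL3 itself did not pass.

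Members of the NF-kB system also differed between the lines. NFKBIA had 0.04 ± 0.14 in OCI-AML3 against 1.19 ± 0.13 in HL-60 (difference -1.14 ± 0.19, adjusted p = 0.0151, limma) and NFKBID had 0.93 ± 0.12 against 2.05 ± 0.11 (-1.12 ± 0.16, adjusted p = 0.00546). TNFSF14, ZNF217 and CLDN6 were, like NFKBIA, chosen after their values were seen. TNFSF14, the TNF family ligand LIGHT, had -0.45 against 0.69, ZNF217, a transcriptional repressor, had -0.11 against 0.72, and CLDN6 had -0.71 against 0.44. In the plot of effects in both lines the error bars of these genes stand apart.

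**Figure D5:**
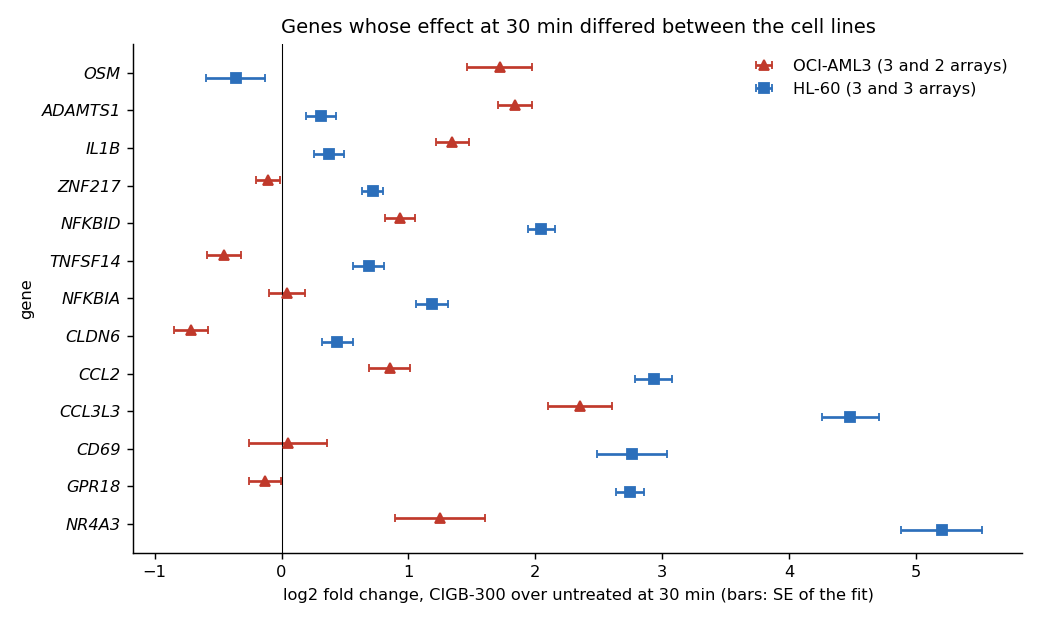
Log2 fold change of CIGB-300 over untreated cells at 30 min with its standard error (horizontal axis) in OCI-AML3 and HL-60 cells for the 13 genes (vertical axis) whose effect differed at an adjusted p under 0.05. OSM, ADAMTS1 and IL1B lie further right in OCI-AML3 cells and the other 10 in HL-60 cells, NR4A3 by the widest margin.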

How the data were processed

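Total RNA of OCI-AML3 and HL-60 cells was hybridised to Clariom S HT arrays. The authors removed 1 untreated OCI-AML3 array of 30 min, adjusted the background, normalized by quantiles and summarized probes by RMA, and deposited log2 values. Tool versions of these steps are not given in the sources used here. The deposited table held 27189 features, and 21448 probe sets remained for testing once 5741 control features had been dropped. Gene symbols came from the platform annotation, and promoters from RefSeq (GRCh38.p14).

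For each probe set, limma 3.58.1 in R 4.3.3 was fitted to all 23 arrays with 1 mean per group, so that the 8 groups shared the spread (15 residual degrees of freedom), with default eBayes settings and no covariates. Contrasts were treated minus untreated OCI-AML3 cells at 30 min, the same contrast in OCI-AML3 at 3 h and in HL-60 at 30 min, and their differences. DEGs changed by 1.5-fold or more with an unadjusted p under 0.01, as in the methods of the study, and adjusted p-values are Benjamini-Hochberg values over all probe sets. The number of arrays limits the precision. The scripts were tested on simulated data. Figures were drawn in Python 3.11.15.

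The comparison, the 43 gene lists and all rules were chosen with earlier results of these data known, but 2 lists are not described in the text. Named genes were the 15 largest changes each way among DEGs with non-overlapping groups, up to 4 DEGs each way of each list, every measured member of the EGR, NR4A, AP-1 and CK2 lists, and up to 5 each way with the largest difference between cell lines or times. Other genes, among them markers and list members given as examples, were chosen after their values were seen. Deviations of treated and untreated arrays of the same replicate number had correlations of -0.0057 for replicate 2 and -0.0047 for replicate 3. With 2 untreated arrays, whose deviations mirror each other, these values can hardly show whether replicates were paired. Alternatives were fits of fewer arrays, a replicate block, trend and robust settings, array weights, median centring or cyclic loess, a median signal filter and a fold limit of 2, and fits that left out each of the 5 arrays in turn; a comparison with the untreated arrays of both times was added after seeing the data.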

Additional observations from a re-analysis of the deposited data

Results flagged for a closer look

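The change with CIGB-300 at 30 min in OCI-AML3 cells differed from that in HL-60 cells at 30 min for 13 genes with a symbol by limma's test of the difference (adjusted p under 0.05 over 21448 probe sets), and the difference is given here as OCI-AML3 minus HL-60 on the log2 scale. It was 2.08 for OSM, 1.53 for ADAMTS1 and 0.97 for IL1B. It was below 0 for ZNF217 (-0.82), NFKBID (-1.12), TNFSF14 (-1.14), NFKBIA (-1.14), CLDN6 (-1.15), CCL2 (-2.08), CCL3L3 (-2.13), CD69 (-2.71), GPR18 (-2.88) and NR4A3 (-3.95). At an unadjusted p under 0.05 the count of differing probe sets was 1505.

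The effect at 30 min differed from that at 3 h in OCI-AML3 cells for 9 genes with a symbol by the same test, given as 30 min minus 3 h. It was 1.08 for PWWP3A, whose untreated means were 5.93 at 30 min and 6.83 at 3 h. It was below 0 for CDKL2, a kinase gene (-0.93), IL2RG, the common gamma chain of interleukin receptors (-1.10), OR10AG1 (-1.12), OR6T1 (-1.14), INSIG1 (-1.23), CD83 (-1.27), TNFAIP3 (-1.45) and C8orf74 (-1.85). At an unadjusted p under 0.05 the count of differing probe sets was 2103. The 2 groups of this comparison have fewer than 4 arrays each, so that no array was tested as an outlier.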

How the results depend on the processing

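The 131 rises and 99 falls became 130 and 108 with the 5 arrays alone, 113 and 94 with the 11 OCI-AML3 arrays, 130 and 118 with a replicate block, 67 and 12 among probe sets above the median signal, and 38 and 7 at a fold change of at least 2. Of the main calls, 93 rises and 62 falls were shared with the fit of 5 arrays. The count with an adjusted p under 0.05 (39) fell to 10 with the 5 arrays alone, 10 with cyclic loess, 23 with the OCI-AML3 arrays and 24 at a fold change of at least 2. Differences from HL-60 (16) became 25 with trend and robust settings, and differences from 3 h (15) became 49 with those settings and 23 with array weights. With each of the 5 arrays left out in turn, rises lay between 129 and 159, falls between 87 and 142, adjusted calls between 20 and 32 (22 without untreated replicate 2 and 20 without untreated replicate 3), differences from HL-60 between 12 and 18 and differences from 3 h between 5 and 18 (9 and 8 without treated replicates 1 and 3, 5 without untreated replicate 3). Of the main calls, 72 rises and 51 falls were called without untreated replicate 2, and 70 rises and 34 falls without untreated replicate 3. Against the untreated arrays of both times, 115 rose, 49 fell and 65 had an adjusted p under 0.05, and 51 of the 62 named DEGs kept their call. The replicate block changed the call of 0 of the 62 named DEGs, and no named DEG changed direction under any alternative run. Under every alternative that tested them 21 kept their call, EGR3, NR4A1, JUN, CCL3, ADAMTS1 and IL1B among them. The filter on signal tested 36 of the 62. In 78 of the 99 falls the brighter group was under the median of all probe sets. The cause of these changes was not tested.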
